A study of Mus musculus with 6 samples.

Results

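The collagen genes other than those of collagen IV were followed in kidneys of mouse embryos with and without Sall1, a zinc finger protein that acts as a transcription factor in nephron progenitors. They were taken by symbol, as every gene named Col, a number, a and a number, leaving out the collagen IV genes. The RefSeq annotation held 38 such symbols, of which 33 had a probe matched by its RefSeq accession and 31 had a probe whose signal was clearly over background on 2 or more of the 6 arrays, out of 15230 named genes that passed the same filter. Each gene was read from its probe of highest mean signal. No probe was matched to Col6a3, Col6a5, Col12a1, Col20a1 or Col22a1, and the probes of Col10a1 and Col28a1 were well above background on 0 arrays. Of the 31 genes, 30 were well above background on all 6 arrays and Col19a1 on 5.

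Total RNA from kidneys at E14.5 (embryonic days), from mice of a mixed 129 and C57BL/6 background, was hybridised to one-colour Agilent arrays, 1 per sample. In the Six2Cre line, where Cre removes floxed Sall1 in nephron progenitors, there were 2 controls (replicates 5 and 2) and 2 Sall1 knockouts (replicates 7 and 9). The CreER line, inducible by tamoxifen, gave 1 control (replicate 2, titled wt/flox) and 1 Sall1 knockout (replicate 5, titled CreER/flox), taken 48 hours after tamoxifen at E12.5. The treatment text writes the genotypes as Six2CrefSall1 and Sall1CreERfSall1, so Cre carries the name of Six2 in one line and CreER that of Sall1 in the other; the line of each sample was read from the titles and the design text. The labels mention tamoxifen for all 6 samples, so whether Six2Cre animals also received it is not settled by them. They name CreER for the knockout of its pair alone, so that CreER and the loss of Sall1 cannot be told apart there. They do not say whether Six2Cre controls carried Cre, which exons were floxed, or how many kidneys or embryos made up a sample, so the p-values measure the spread between these samples, which may be technical. Six2Cre control 5 and knockout 7 shared slide 1, and the other 4 arrays shared slide 2.

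Collagens are secreted or membrane proteins whose alpha chains wind into a triple helix. Fibrillar collagens (I, II, III, V, XI, XXIV, XXVII) are secreted as procollagens, trimmed at their ends, and assemble into cross-linked fibrils, with collagens V and XI setting fibril nucleation and width. Fibril-associated collagens with interrupted helices, called FACITs, sit on the fibril surface, collagen VI makes beaded filaments around cells, collagen VIII makes networks, collagen VII makes anchoring fibrils, and the multiplexins XV and XVIII lie at basement membranes. In the developing kidney the interstitial collagens are known as products of the stromal cells that surround the nephron progenitors and the ureteric tree.

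Levels are given as log2 of the processed signal minus the log2 of the array's 75th percentile, so that 0 is the signal of the 75th percentile probe, and are compared only within a probe. Sall1 itself was -1.38 on control 5, -0.77 on control 2, -2.65 on knockout 7 and -2.00 on knockout 9; both knockouts lay below both controls (log2 difference -1.25, SE 0.37, limma adjusted p = 0.595). In the CreER pair it was -1.28 on the control and -4.06 on the knockout. Where its probe lies with respect to the floxed exons is not stated in the labels or files. The share of probes well above background ran from 80.0% to 82.9% on 5 arrays and was 71.8% on CreER knockout 5, whose negative controls were also more scattered (SD 4.01 against 1.46 to 1.61). All 9 markers of nephron progenitors and all 10 of the ureteric tree passed the filter. Six2Cre control 2 stood apart by its muscle markers: their summed signal was 53.3 times the 75th percentile on that array and from 3.44 to 6.19 times on the others. Some collagen results are therefore also given without that array.

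The Six2Cre comparison asks how transcripts differ after Sall1 is removed from nephron progenitors. Most collagen genes had more signal in Six2Cre knockout kidneys: 23 of 31 were higher (74.2%, against 53.9% of all 26394 features), with a median log2 difference of 0.48, against 0.028 over all features. Taken by slide, the median was 0.53 for slide 1 and 0.42 for slide 2. Both knockouts lay above both controls for 17 of 31 collagen genes (54.8%; background 17.6% of all features) and below both for 6 (19.4%; background 12.6%). In whole kidneys, a changed share of cells of a type and a changed amount of RNA per cell cannot be told apart. No collagen gene passed limma's test across all features at an adjusted p of 0.05, nor did any of the 26394 features (0%). At an unadjusted p under 0.05, 8 collagen genes were higher (background 3.61%) and 0 were lower (background 2.7%).

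With the slide as a block and a trended, robust variance estimate, 5 collagen genes passed and were higher in knockouts (background 1.15%), and 0 were lower (background 1.22%). Those 5 were Col24a1 (limma adjusted p = 0.017 in that fit), Col8a2 (0.017), Col5a3 (0.0257), Col5a2 (0.0328) and Col16a1 (0.0393). With the slide as a block alone, 0 features passed (0%). Without Six2Cre control 2, both knockouts lay above control 5 for 19 collagen genes (35.8% of all features) and below it for 8 (29.9%), and the median was 0.45. By class, the median without that array was 0.50 for fibrillar, 0.27 for FACIT and 0.92 for collagen VI genes. It was 0.68 for collagens VII and VIII, -0.26 for multiplexins and -0.54 for transmembrane collagens.

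**Figure D1:**
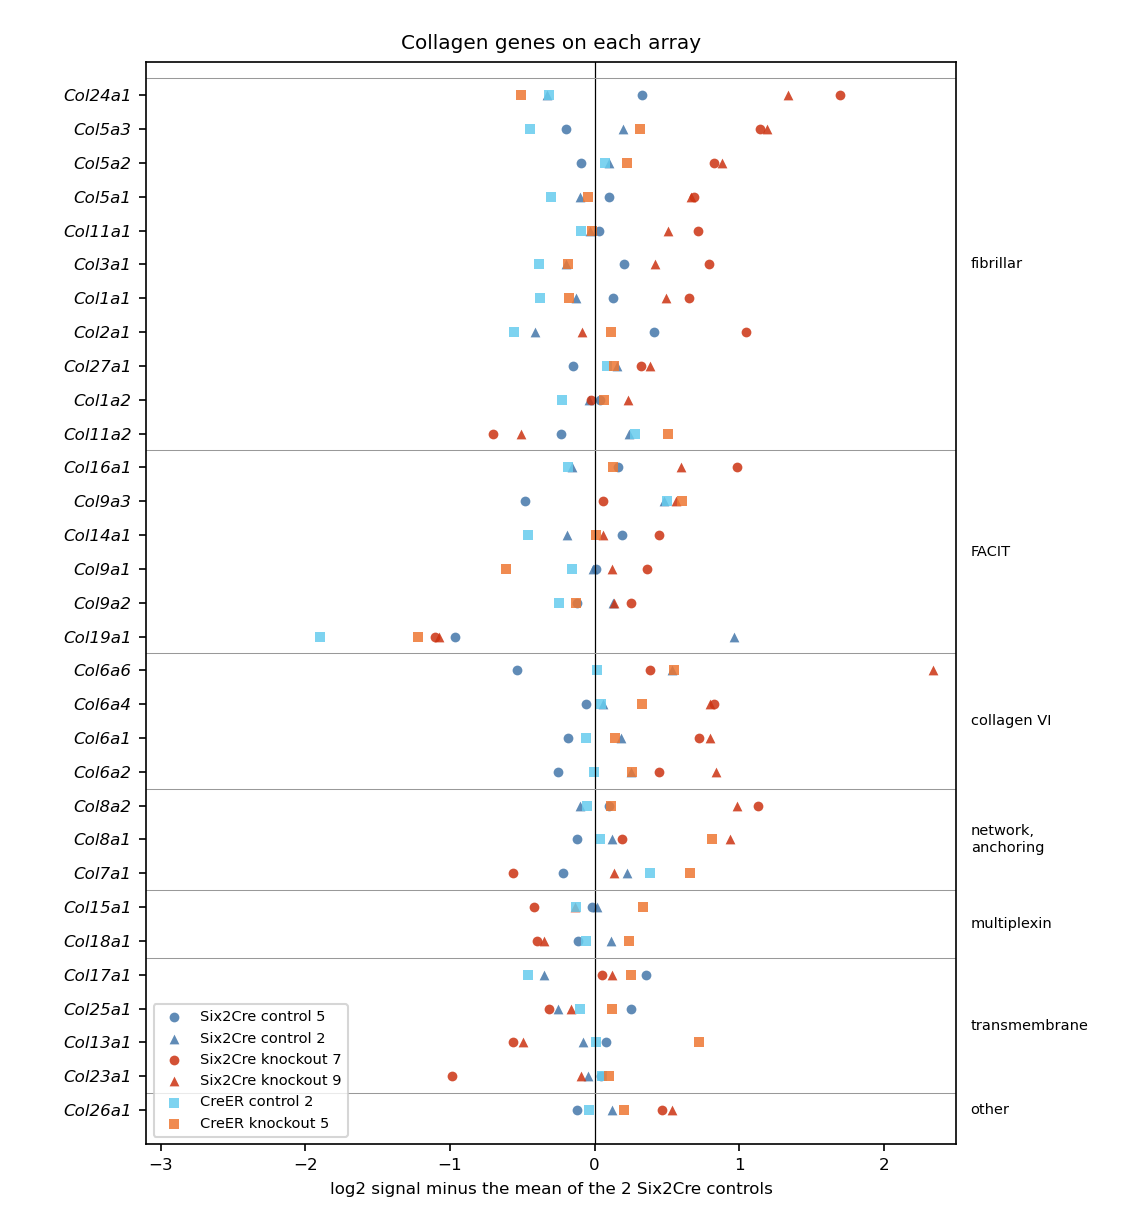
Signal of the 31 collagen genes on each array: the horizontal axis is log2 signal minus the mean of the 2 Six2Cre controls, and each symbol is 1 array, with genes grouped by structural class. Both Six2Cre knockouts lie right of both controls for 17 genes, among them Col5a3 and Col8a2, and left of both for 6, among them Col18a1 and Col13a1.

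**Figure D2:**
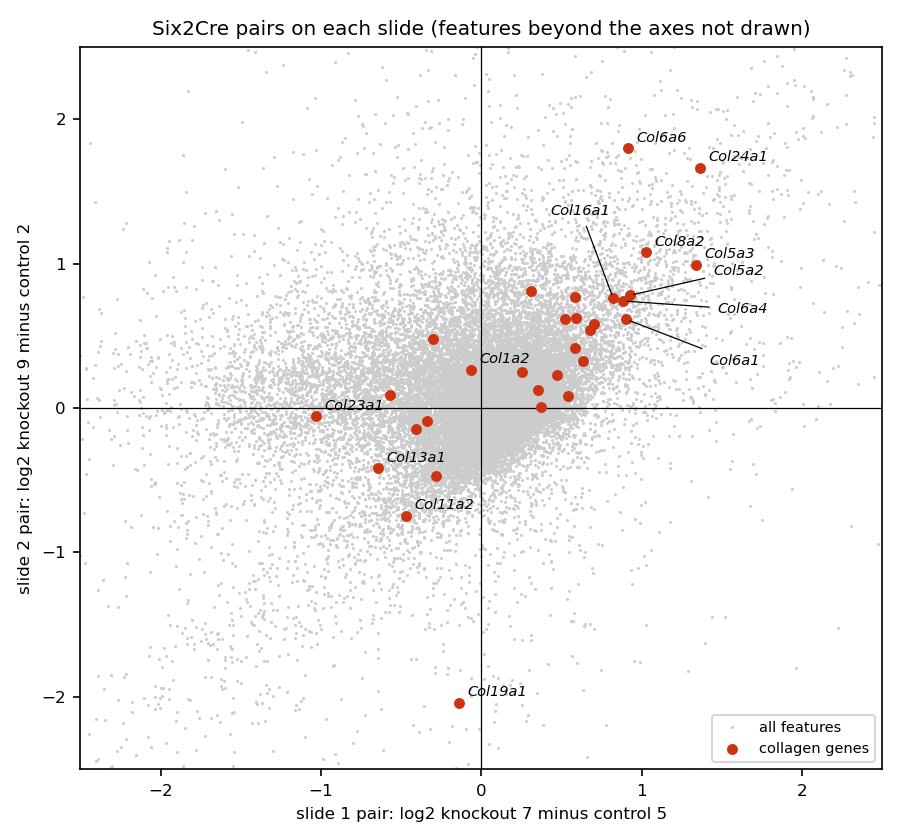
Six2Cre knockout minus control (log2) on slide 1 (horizontal axis) against slide 2 (vertical axis), for 31 collagen genes in red and all 26394 features in grey, leaving out those beyond the axes. Col24a1 (1.36 and 1.66) and Col6a6 (0.92 and 1.80) lie at the upper right, and Col11a2 (-0.47 and -0.75) at the lower left.

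Among the fibrillar collagens, 10 of 11 measured chains were higher in Six2Cre knockouts, with a median of 0.61. The groups did not overlap for 8 of them that were higher (background 17.6%) and for 1 that was lower (background 12.6%). Col1a1 encodes the alpha 1 chain of collagen I, the main fibril of loose connective tissue. Its level was 5.16 on control 5, 4.90 on control 2, 5.68 on knockout 7 and 5.52 on knockout 9. Both knockouts were above both controls by a modest margin (log2 difference 0.57, SE 0.26, limma adjusted p = 0.92; 1.49-fold higher). Col1a2 encodes the partner chain of collagen I. Its level was 5.57 on control 5, 5.49 on control 2, 5.51 on knockout 7 and 5.76 on knockout 9. Knockout 7 lay between the controls, so the groups overlapped (log2 difference 0.10, SE 0.25, limma adjusted p = 1). The pair differences of Col1a2 were -0.061 on slide 1 and 0.27 on slide 2, while those of Col1a1 were 0.53 on slide 1 and 0.62 on slide 2.

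Col3a1, the single chain of collagen III, which mixes with collagen I in extensible tissues, was 4.93 on control 5, 4.53 on control 2, 5.52 on knockout 7 and 5.15 on knockout 9. Each knockout exceeded the control of its slide by a similar step, 0.59 on slide 1 and 0.62 on slide 2 (log2 difference 0.61, SE 0.30, limma adjusted p = 0.974). The closest arrays of the 2 groups were knockout 9 and control 5.

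The collagen V chains, which copolymerise with collagen I and set fibril diameter, were all higher and without overlap (background 17.6% of all features). Col5a1 was 2.76 on control 5, 2.56 on control 2, 3.34 on knockout 7 and 3.33 on knockout 9 (1.60-fold higher; log2 difference 0.68, SE 0.25, limma adjusted p = 0.758). Its second, dimmer probe hardly differed on average (-0.014), with -0.63 on slide 1 and 0.60 on slide 2. Col5a2 was 0.64 on control 5, 0.83 on control 2, 1.56 on knockout 7 and 1.61 on knockout 9. The controls were close together and so were the knockouts, with a clear gap between the groups (1.81-fold higher; log2 difference 0.85, SE 0.25, limma adjusted p = 0.574). Col5a3, a chain of more restricted distribution than the others, was -1.37 on control 5, -0.98 on control 2, -0.032 on knockout 7 and 0.016 on knockout 9. The knockouts were nearly level with each other, about a log2 unit above the nearer control (2.24-fold higher; log2 difference 1.17, SE 0.27, limma adjusted p = 0.402; 1.34 on slide 1 and 0.99 on slide 2). A dimmer Col5a3 probe differed by 0.16. Without Six2Cre control 2, the differences were 0.58 for Col5a1, 0.95 for Col5a2 and 1.36 for Col5a3.

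Col24a1, a fibrillar chain known from developing bone, had the lowest p of the collagen genes. Its level was -1.91 on control 5, -2.56 on control 2, -0.54 on knockout 7 and -0.90 on knockout 9. Both knockouts were far above both controls, and the controls themselves differed by more than the knockouts did (2.86-fold higher; log2 difference 1.51, SE 0.34, limma adjusted p = 0.386). The pair differences were 1.36 on slide 1 and 1.66 on slide 2. A second, dimmer Col24a1 probe had a difference of -0.16, so the 2 probes did not share a direction. Col27a1, a fibrillar chain of cartilage, was also higher without overlap (log2 difference 0.35, SE 0.26).

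The chains known best from cartilage had differences of both signs. Col2a1, the chain of collagen II, was 2.25 on control 5, 1.42 on control 2, 2.88 on knockout 7 and 1.75 on knockout 9. The slide 1 arrays were high for it, and knockout 9 lay below control 5, so the groups overlapped (log2 difference 0.48, SE 0.52, limma adjusted p = 1). A second Col2a1 probe had the reverse slide pattern, at 0.20 on control 5, 0.90 on control 2, 0.27 on knockout 7 and 0.93 on knockout 9, and a difference of 0.046. Col11a1, the alpha 1 chain of collagen XI, which is also made outside cartilage, was -0.00028 on control 5, -0.067 on control 2, 0.68 on knockout 7 and 0.47 on knockout 9. Its controls were nearly equal and both knockouts were above them (log2 difference 0.61, SE 0.25, limma adjusted p = 0.838). A dimmer Col11a1 probe did not share this, with a difference of 0.074 (-0.43 on slide 1 and 0.58 on slide 2). Col11a2, the partner chain of Col11a1, was -1.59 on control 5, -1.12 on control 2, -2.06 on knockout 7 and -1.86 on knockout 9. Both knockouts were below both controls, the reverse of Col11a1 (log2 difference -0.61, SE 0.29, limma adjusted p = 0.958; -0.47 on slide 1 and -0.75 on slide 2). A second Col11a2 probe had the opposite sign.

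Collagen IX is the FACIT of collagen II fibrils. Col9a1 was -1.45 on control 5, -1.47 on control 2, -1.10 on knockout 7 and -1.34 on knockout 9 (log2 difference 0.24, SE 0.25, limma adjusted p = 1). Col9a2 was -0.67 on control 5, -0.42 on control 2, -0.29 on knockout 7 and -0.41 on knockout 9 (log2 difference 0.19, SE 0.25, limma adjusted p = 1). For both, the knockouts lay above the controls by a small margin, and the slide 2 pair hardly differed for Col9a2 (0.0089). Col9a3 was -3.42 on control 5, -2.46 on control 2, -2.88 on knockout 7 and -2.38 on knockout 9 (log2 difference 0.31, SE 0.43, limma adjusted p = 1). Control 5 was low for Col9a3 and knockout 7 lay below control 2, so the groups overlapped.

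Of the 6 measured FACIT genes, 5 were higher, with a median of 0.25. Col16a1, a FACIT of connective tissue and smooth muscle, was 3.20 on control 5, 2.88 on control 2, 4.02 on knockout 7 and 3.64 on knockout 9. Both knockouts were above both controls (1.73-fold higher; log2 difference 0.79, SE 0.29, limma adjusted p = 0.757; 0.82 on slide 1 and 0.76 on slide 2). A dimmer Col16a1 probe differed by 0.27. Col14a1, a FACIT bound to collagen I fibrils, overlapped between groups (log2 difference 0.25, SE 0.30). Col19a1, a FACIT known from embryonic muscle, was the gene of largest negative difference among the 31 (-1.09, SE 0.67). It was high on 1 array: -7.04 on control 5, -5.10 on control 2, -7.17 on knockout 7 and -7.14 on knockout 9. That array is the one with high muscle markers, and without it the difference was -0.12.

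All 4 measured collagen VI chains were higher in Six2Cre knockouts, with a median of 0.79, and 3 of them without overlap (background 17.6%). Col6a1 encodes a chain of the beaded filaments that link cells to the interstitial matrix. It was 0.81 on control 5, 1.17 on control 2, 1.71 on knockout 7 and 1.79 on knockout 9 (1.69-fold higher; log2 difference 0.76, SE 0.27, limma adjusted p = 0.734). Col6a2, which pairs with it in the filament, was -0.39 on control 5, 0.11 on control 2, 0.31 on knockout 7 and 0.70 on knockout 9 (log2 difference 0.64, SE 0.32, limma adjusted p = 0.975). For both, control 2 was the higher control and knockout 9 the higher knockout. Col6a4 was -2.54 on control 5, -2.42 on control 2, -1.65 on knockout 7 and -1.68 on knockout 9, with the 2 controls and the 2 knockouts each close together (log2 difference 0.81, SE 0.24, limma adjusted p = 0.588). A dimmer Col6a4 probe did not share this, with a difference of 0.058 (-0.34 on slide 1 and 0.45 on slide 2). Col6a6 had a difference of 1.36 with a large error (SE 0.76), and its groups overlapped.

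Col8a2, a chain of the collagen VIII network of vessel walls and corneal endothelium, was 0.36 on control 5, 0.16 on control 2, 1.39 on knockout 7 and 1.24 on knockout 9. Each pair of replicates was close together, with the knockouts above (2.08-fold higher; log2 difference 1.06, SE 0.25, limma adjusted p = 0.426; 1.03 on slide 1 and 1.08 on slide 2). Its partner Col8a1 was higher without overlap (log2 difference 0.56, SE 0.35), and Col7a1, the anchoring fibril chain of skin, overlapped (-0.22, SE 0.36). Col26a1, a short collagen with an EMI domain, was higher without overlap (0.50, SE 0.25).

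The multiplexins and most transmembrane collagens had lower values in Six2Cre knockouts. Col18a1, a basement membrane collagen whose end fragment is endostatin, was 4.11 on control 5, 4.34 on control 2, 3.83 on knockout 7 and 3.88 on knockout 9. Both knockouts were below both controls (1.30-fold lower; log2 difference -0.38, SE 0.25, limma adjusted p = 1). Col15a1, the related collagen of vessel and muscle basement membranes, was -1.26 on control 5, -1.23 on control 2, -1.66 on knockout 7 and -1.38 on knockout 9, also without overlap (log2 difference -0.28, SE 0.26, limma adjusted p = 1). Of the 4 transmembrane collagens, 3 were lower, with a median of -0.38. Taken by slide, that median was -0.61 on slide 1 and 0.017 on slide 2, and 2 genes were lower in both pairs. Col13a1, a collagen of cell junctions, was lower without overlap (-0.53, SE 0.24), and so was Col23a1 (-0.54, SE 0.38), though by -1.03 on slide 1 and -0.054 on slide 2. Col25a1 (-0.24) and Col17a1 (0.087), the collagen of hemidesmosomes, overlapped between groups. Of all features, 12.6% were lower without overlap.

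Several collagen genes are neighbours on a chromosome, in the RefSeq annotation of GRCm38.p6. Col3a1 lies next to Col5a2 on chromosome 1, and both were higher without overlap. Col6a2 lies next to Col6a1 on chromosome 10, and both were higher without overlap. Of all features, 17.6% were higher without overlap. On chromosome 9, Col6a6, Col6a5 and Col6a4 follow each other; the first and the last were higher and the middle one had no matched probe. Col9a1 and Col19a1 also adjoin on chromosome 1 and had opposite signs.

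Promoter sequence is shown for the collagen genes that passed in the fit with slide block and trended, robust variance, and for Col1a2, whose groups overlapped, as a contrast. Each line holds the 250 bases before the annotated start, 5′ to 3′ in the direction of the gene, from RefSeq on GRCm38.p6. Capitals mark CCAAT, the box bound by nuclear factor Y and by C/EBP-related factors, and GGGCGG, the GC box bound by Sp1, on either strand and with overlapping matches counted. Col24a1 (chr3:145292222-145292471, plus strand), Col5a3 (chr9:20815068-20815317, minus strand), Col8a2 (chr4:126286544-126286793, plus strand), Col16a1 (chr4:130047590-130047839, plus strand) and Col1a2 (chr6:4505368-4505617, plus strand) are given, while Col5a2 has no entry in the table used.
Col24a1: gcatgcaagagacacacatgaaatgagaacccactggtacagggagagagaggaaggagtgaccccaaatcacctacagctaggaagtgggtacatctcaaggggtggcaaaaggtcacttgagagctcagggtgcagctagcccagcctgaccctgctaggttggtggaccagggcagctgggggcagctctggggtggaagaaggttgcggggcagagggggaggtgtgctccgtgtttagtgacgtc
Col5a3: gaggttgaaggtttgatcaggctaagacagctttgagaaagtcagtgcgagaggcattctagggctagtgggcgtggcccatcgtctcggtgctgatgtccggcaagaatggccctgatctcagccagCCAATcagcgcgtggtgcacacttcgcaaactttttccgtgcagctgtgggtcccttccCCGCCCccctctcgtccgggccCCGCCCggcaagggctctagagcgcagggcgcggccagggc
Col8a2: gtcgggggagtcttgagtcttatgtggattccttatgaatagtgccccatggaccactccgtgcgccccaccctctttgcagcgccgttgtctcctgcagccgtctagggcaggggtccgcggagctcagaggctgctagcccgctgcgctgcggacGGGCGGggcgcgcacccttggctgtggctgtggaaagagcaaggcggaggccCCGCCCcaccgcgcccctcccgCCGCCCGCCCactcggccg
Col16a1: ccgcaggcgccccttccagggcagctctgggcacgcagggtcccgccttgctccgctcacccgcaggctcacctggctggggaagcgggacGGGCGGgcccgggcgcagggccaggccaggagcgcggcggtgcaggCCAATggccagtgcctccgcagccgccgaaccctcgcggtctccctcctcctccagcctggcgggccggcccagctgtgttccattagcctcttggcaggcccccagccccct
Col1a2: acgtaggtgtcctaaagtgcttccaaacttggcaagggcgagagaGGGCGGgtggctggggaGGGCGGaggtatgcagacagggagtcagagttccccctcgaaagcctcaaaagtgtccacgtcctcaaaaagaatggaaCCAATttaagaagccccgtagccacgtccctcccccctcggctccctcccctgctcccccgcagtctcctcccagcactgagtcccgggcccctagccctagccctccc

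Col24a1 held neither motif in this window, Col8a2 held 4 GC boxes and no CCAAT, and Col5a3, Col16a1 and Col1a2 each held 1 CCAAT, with 2, 1 and 2 GC boxes. Of the 25 collagen genes with a promoter entry, 17 held a GC box, against 32.7% of 32851 promoters, and 10 held CCAAT, against 33.8%. TATAAA was in 4, against 12.4%. A gene was counted when any of its entries held the motif, while the background counts each entry. Col6a2, Col9a1 and Col18a1 had more than 1 entry. Among collagen genes with both knockouts above both controls, 10 of 14 held a GC box and 5 of 14 CCAAT, and among the other collagen genes 7 of 11 and 5 of 11. A match describes the letters only, and is neither a binding site nor a cause of a difference.

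Collagen needs a set of partner genes, which were read from lists of known function; none of these genes passed limma's test across all features after adjustment. Enzymes and chaperones that modify procollagen in the endoplasmic reticulum were higher for 18 of 21 measured genes, with a median of 0.23 and none at an unadjusted p under 0.05. Plod2, the lysyl hydroxylase of the telopeptides, differed by 0.68 (SE 0.29), the chaperone Fkbp14 by 0.64 (SE 0.43) and the prolyl 3-hydroxylase P3h1 by 0.37 (SE 0.26). Of 6 measured genes of propeptide removal, 4 were higher, with a median of 0.23. Adamts2, the protease that removes the amino-terminal propeptide of procollagens I, II and III, was 0.093 on control 5, 0.43 on control 2, 1.42 on knockout 7 and 1.72 on knockout 9. Both knockouts were well above both controls (2.47-fold higher; log2 difference 1.31, SE 0.28, limma adjusted p = 0.35; limma adjusted p = 0.00839 with slide block, trend and robust). The proteases' enhancer Pcolce (0.34, SE 0.25) and Bmp1, which removes the carboxy-terminal propeptide (0.42, SE 0.39), had smaller differences.

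Of the 4 measured lysyl oxidases, which start the cross-links between collagen chains, 3 were higher, with a median of 0.53: Loxl1 (0.75, SE 0.27), Loxl4 (0.50, SE 0.31) and Loxl3 (0.56, SE 0.37). No probe was matched to Lox. Collagen receptors were split, with 4 of 8 higher and a median of 0.12. Ddr2, a receptor tyrosine kinase that binds fibrillar collagen, was 0.87 on control 5, 1.13 on control 2, 1.91 on knockout 7 and 1.88 on knockout 9 (log2 difference 0.90, SE 0.25, limma adjusted p = 0.555; limma adjusted p = 0.0333 with slide block, trend and robust). Itga1, the alpha chain of a collagen-binding integrin, was -1.83 on control 5, -1.88 on control 2, -2.53 on knockout 7 and -2.44 on knockout 9. It was lower in both knockouts than in both controls (log2 difference -0.64, SE 0.24, limma adjusted p = 0.784), whereas its partner Itgb1 differed by 0.35 (SE 0.24).

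Of 11 measured genes of collagen breakdown and its inhibitors, 8 were higher, with a median of 0.33. Ctsk, the collagen-cleaving cathepsin known best from osteoclasts, was -2.80 on control 5, -2.56 on control 2, -1.70 on knockout 7 and -1.25 on knockout 9. Both knockouts were above both controls (2.30-fold higher; log2 difference 1.20, SE 0.29, limma adjusted p = 0.443; limma adjusted p = 0.0396 with slide block, trend and robust). The collagenase Mmp13 differed by 0.95 (SE 0.38) and the protease inhibitor Timp1 by 0.38 (SE 0.25). Mmp13 had low signal, from -7.76 to -6.27 on the Six2Cre arrays. It differed by 0.41 on slide 1 and 1.49 on slide 2, and by 0.50 without control 2.

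Genes of proteins that bind collagen fibrils or lie in the same matrix were higher for 15 of 16 measured, with a median of 0.73, and 10 of them, all higher, had an unadjusted p under 0.05 (background 3.61%). Kera, the small leucine-rich proteoglycan keratocan, was -5.36 on control 5, -5.34 on control 2, -3.28 on knockout 7 and -3.32 on knockout 9. The knockouts were far above the controls on each slide (log2 difference 2.05, SE 0.24, limma adjusted p = 0.121; 2.07 on slide 1 and 2.02 on slide 2). Dpt, dermatopontin, which binds decorin and collagen, differed by 1.31 (SE 0.25, limma adjusted p = 0.278), and lumican, Lum, by 1.33 (SE 0.26, limma adjusted p = 0.282). In the fit with slide block, trend and robust, 5 of the 16 passed, all higher (background 1.15%).

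**Figure D3:**
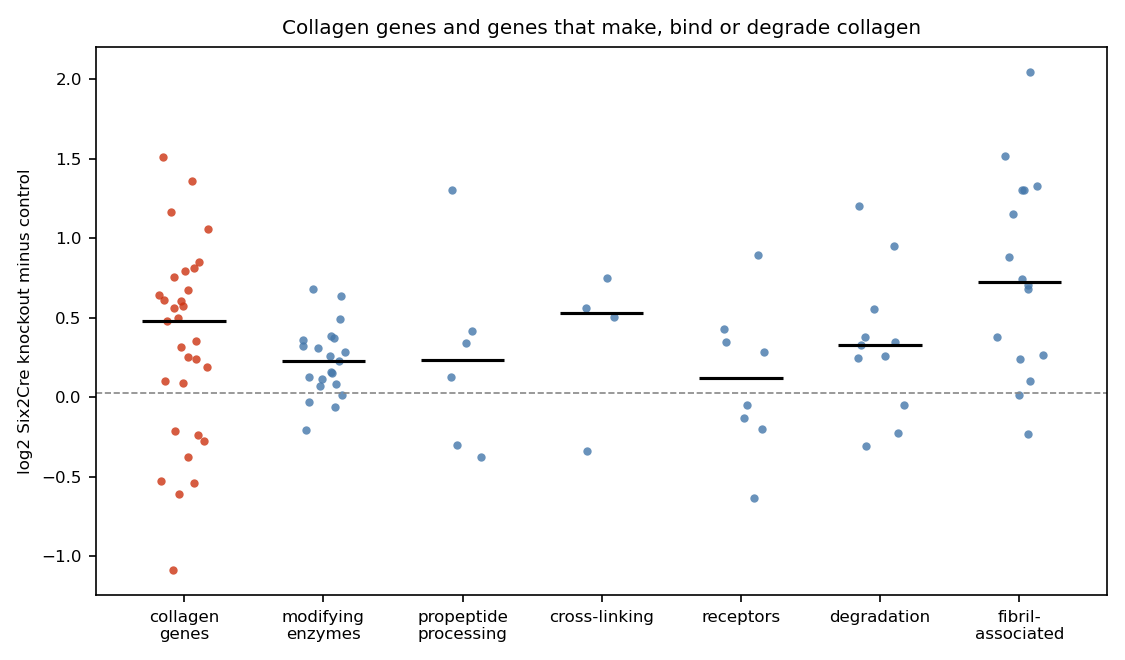
Six2Cre knockout minus control (log2, vertical axis) for each measured gene of the collagen family and of 6 lists of partner genes; a point is a gene, the bar is the list's median and the dashed line is the median of all features (0.028). The medians run from 0.12 for receptors to 0.73 for fibril-associated genes, with the collagen genes at 0.48.

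In the CreER pair, 48 hours after tamoxifen, 29 of 31 collagen genes had a higher value on the knockout array (background 48.9% of all features), with a median of 0.26 against -0.0054 over all features. There is 1 array per group, so these differences have no replicate check. None reached 2-fold (background 3.59% of 25925 features), and the range was from -0.46 for Col9a1 to 0.77 for Col8a1. Before scaling, the processed signals were close, at 51759 on the control and 51600 on the knockout for Col1a1. The 75th percentile was 2055 on the control and 1791 on the knockout, and 20 of the 31 genes were higher unscaled, against 17.1% of all features. With normexp background correction 28 of 31 were higher, with a median of 0.23, while 67.1% of all features were higher. With the mean of all kept probes of a gene, 27 of 31 were higher, with a median of 0.19, beside 46.5% of all features. The lower share of probes above background on this knockout array stands beside these values, and its part in them was not tested.

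Col5a3 was -1.62 on the control and -0.86 on the knockout in the CreER pair, a difference of 0.76. Col8a1 was -1.47 on the control and -0.70 on the knockout (0.77), and Col2a1 1.28 on the control and 1.95 on the knockout (0.67). Second probes differed by -0.38 for Col5a3, 0.88 for Col8a1 and 0.79 for Col2a1. The collagen I and III genes differed by 0.19 (Col1a1), 0.29 (Col1a2) and 0.20 (Col3a1), and the measured collagen VI chains by 0.20 to 0.53. Col24a1 was -2.55 on the control and -2.75 on the knockout, and Col9a1 -1.61 on the control and -2.07 on the knockout. These were the genes with a lower value on the knockout array, though a dimmer Col24a1 probe differed by 0.19. On their brightest probes, both multiplexins and all 4 transmembrane collagens had higher values, by 0.30 for Col18a1, 0.46 for Col15a1 and 0.71 for Col13a1. The Six2Cre differences were negative for Col18a1, Col15a1 and Col13a1. Dimmer kept probes were lower for Col17a1 (-0.38) and Col25a1 (-0.26) and of both signs for Col23a1 (0.12 and -0.016). They were higher for Col13a1 (0.52), Col15a1 (0.38) and Col18a1 (0.27). In all, 8 collagen genes were lower in the Six2Cre line and higher in the CreER pair (background 19.1% of all features).

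The difference between the lines was tested within the fit of all 6 arrays, assuming that the lone CreER arrays vary like the Six2Cre groups. It passed for 0 collagen genes and 0 features (0%) after adjustment. At an unadjusted p under 0.05 it was met by 2 collagen genes (background 2.34%). For Col24a1 the CreER difference was 1.71 below that of the Six2Cre line (CreER minus Six2Cre -1.71, SE 0.59). The dimmer Col24a1 probe did not share this, with -0.16 in the Six2Cre line and 0.19 in the CreER pair. For Col13a1 the CreER difference was 1.24 above that of the Six2Cre line (SE 0.42). The limma adjusted p was 1 for both.

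All 3 knockout arrays exceeded the control of their own pair for 19 of 31 collagen genes (background 20% of all features). When genotype was fitted across the 6 arrays together, adjusting for line and slide, 0 collagen genes and 0 features (0%) passed after adjustment. At an unadjusted p under 0.05, 14 collagen genes were higher in knockouts (background 5.77%). Leaving out any 1 of the 4 Six2Cre arrays left 3 collagen genes at that p. Line and slide together mark each pair in this fit, so leaving out an array also takes its partner out of the comparison. Over all 6 arrays, Col5a3 had a genotype difference of 1.03 (SE 0.16, limma adjusted p = 0.282), Col6a6 of 1.08 (SE 0.28) and Col2a1 of 0.54 (SE 0.13). Col1a2 had a difference of 0.17 (SE 0.13). These values are of the brightest probes. The dimmer Col5a3 probe differed by 0.16 in the Six2Cre line and -0.38 in the CreER pair, and the second Col2a1 probe by 0.046 and 0.79. The Six2Cre groups of Col6a6 and Col2a1 overlapped.

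**Figure D4:**
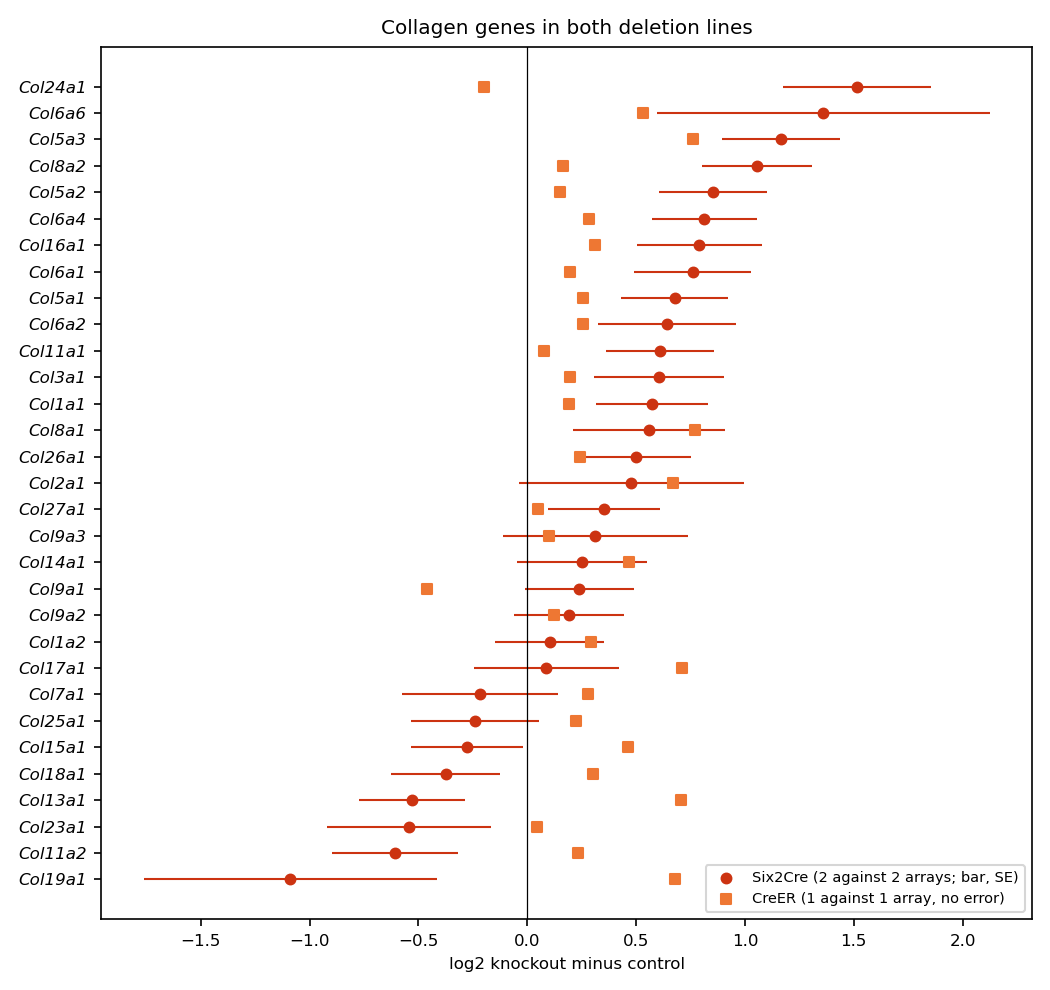
Knockout minus control (log2, horizontal axis) of the 31 collagen genes; red points are the Six2Cre line (2 against 2 arrays, bars are limma's SE) and orange squares the CreER pair (1 against 1 array, no error). Squares lie right of 0 for 29 genes. Col24a1 is far apart in the lines on its brighter probe (1.51 and -0.20), which its dimmer probe did not share (-0.16 and 0.19).

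Markers of other cell types were read on the same arrays. Stromal markers were higher for 13 of 15 in Six2Cre knockouts, with a median of 0.47, beside 0.48 for the collagen genes. Summed stromal signal was 127 and 133 times the 75th percentile on the Six2Cre controls and 187 and 186 times on the knockouts. All 9 nephron progenitor markers, Sall1 among them, were lower, with a median of -1.25, and so were all 9 early nephron markers, with a median of -1.57. Summed nephron progenitor signal was 31.5 and 40.7 times the 75th percentile on the controls, and 11.2 and 12.2 on the knockouts. Macrophage markers were higher for 6 of 7, with a median of 0.64 and summed signals of 3.12 and 3.72 on the controls and 4.82 and 6.12 on the knockouts. What these shifts contribute to the collagen differences was not tested.

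Markers of cartilage, bone and tendon, whose cells also make collagen, had medians of 0.038 (6 of 8 higher), -0.099 (2 of 6) and 0.075 (3 of 5); the tendon list shares Fmod with the fibril-associated list. Without Six2Cre control 2 these medians were -0.14, -0.079 and 0.31. The cartilage markers Matn1 and Ucma, the bone markers Ibsp and Dmp1 and the tendon marker Tnmd were well above background on fewer than 2 arrays. Summed cartilage signal was 2.00 and 1.96 times the 75th percentile on the Six2Cre controls and 2.39 and 2.00 on the knockouts. Endothelial markers were higher for 5 of 8 (median 0.11), ureteric markers for 5 of 10 (0.17), Schwann cell markers for 2 of 5 (-0.056) and adrenal markers for 2 of 6 (-0.26); without Six2Cre control 2 the Schwann cell median was 0.24 and the adrenal median -0.62. Muscle markers were higher for 0 of 15, with a median of -1.91 that became 0.030 without Six2Cre control 2. In the CreER pair, beside 0.26 for the collagen genes, the median was 0.62 for muscle markers (14 of 15 higher), 0.38 for Schwann cell markers (3 of 5), 0.34 for macrophage markers (7 of 7), 0.23 for endothelial markers (6 of 8), 0.068 for adrenal markers (3 of 6), 0.054 for ureteric markers (7 of 10) and 0.035 for stromal markers (8 of 15). It was -0.052 for tendon (2 of 5), -0.14 for cartilage (3 of 8), -0.15 for early nephron (3 of 9), -0.41 for bone (1 of 6) and -0.50 for nephron progenitor markers (2 of 9 higher).

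**Figure D5:**
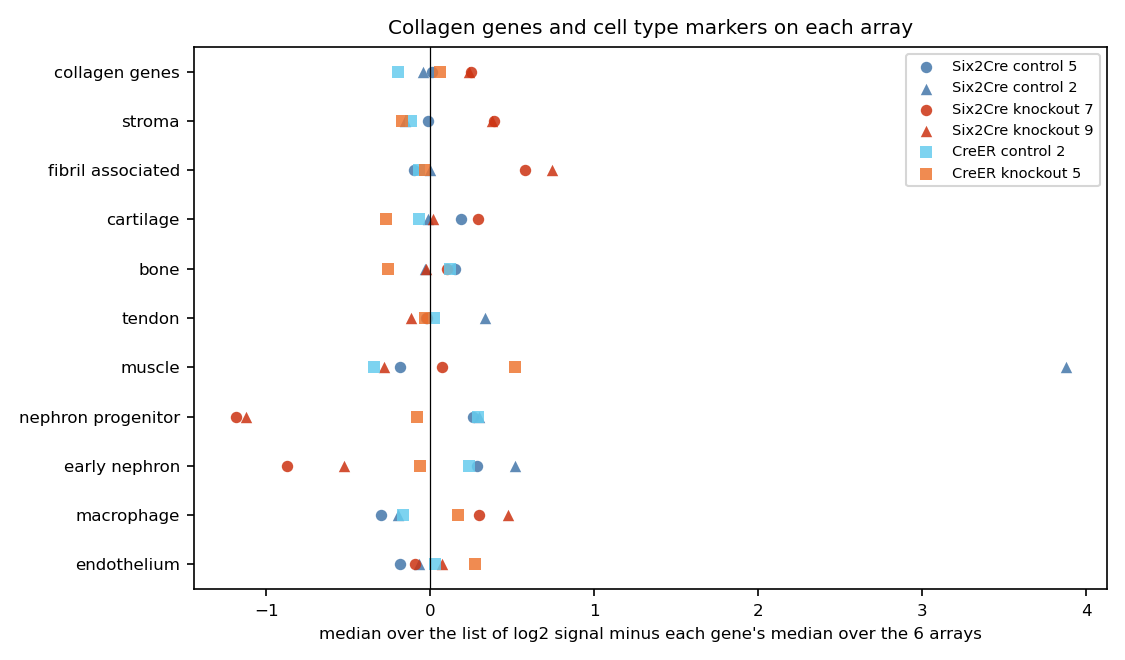
Median over each gene list of the log2 signal minus the gene's own median over the 6 arrays (horizontal axis); each symbol is 1 array. Both Six2Cre knockouts are right of all other arrays for collagen genes (0.25 and 0.24), stroma (0.39 and 0.38) and fibril-associated genes, and muscle markers stand at 3.87 on Six2Cre control 2.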

How the data were processed

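Per the labels' protocols, total RNA was extracted with Trizol, labelled with Cy3 and hybridised to Agilent mouse arrays. Per the file headers, the authors' scans were read with Feature Extraction 10.5.1.1, and the deposited processed signal is an intensity from which background was subtracted and a spatial trend removed array by array, with no normalization across arrays. The deposited value table of the series held the same intensities (100% within a relative tolerance of 0.001). Of 41174 non-control probes, 40987 carried no outlier flag on any array. Spots of a probe were averaged. Probes were named by RefSeq accession without version (24991 probes, 17230 genes), and a gene took its probe of highest mean signal. Features well above background on at least 2 arrays were kept (26394, of which 15230 were named genes). The analysed value was log2 processed signal, less the log2 of that array's 75th percentile.

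limma 3.58.1 in R 4.3.3 fitted the 4 groups on all 6 arrays (lmFit, eBayes, two-sided, Benjamini-Hochberg over all kept features at 0.05), and a second fit took genotype with line and slide. The first fit was tested on simulated data whose changes were larger than any collagen group difference here. The fit with slide block, trend and robust was not tested in that way. The number of arrays limits the precision. Alternatives were normexp background correction (offset 50, on median spot signals), quantile normalization, slide as a block with and without eBayes trend and robust, other filters on dim probes, the mean of all probes of a gene, and leaving out arrays in turn. The collagen genes, the gene lists and the fit with trend and robust were chosen with earlier results of these data known.

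Array values are given for the interstitial and cartilage collagens, the multiplexins and the 10 collagen genes of lowest p; a difference of at least 1 in the CreER pair would also have qualified. Up to 3 genes of lowest p are named per partner list, and other genes are given by count and range. The other collagen genes named with a difference, and the second probes, were picked after their values were seen. Probe positions were left out, since the array and the annotation follow separate genome builds. Plots used Python 3.11.15 with matplotlib 3.10.9.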

Additional observations from a re-analysis of the deposited data

How the results depend on the processing

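The Six2Cre controls (replicates 5 and 2) and knockouts (replicates 7 and 9) share no replicate numbers, so arrays were paired by slide: with the slide as a block alone, 0 features passed. No paired analysis was possible by replicate number. With the slide as a block together with eBayes trend and robust, 5 collagen genes and 627 features passed where 0 did otherwise. The p-values of that fit rest mostly on the variance shared across features. Taking the mean of all kept probes of a gene, the median collagen difference was 0.31, and 23 genes were still higher. Leaving out each Six2Cre array in turn gave medians from 0.38 to 0.45 and 22 to 23 genes higher. Of 340 comparisons of a single collagen gene with an alternative, 328 kept direction and side of the threshold, 5 passed it newly and 7 changed sign, for 6 of the 31 genes. Those were, leaving out 1 array, Col9a3 (-0.17) and Col25a1 (0.013) without control 5, Col2a1 (-0.089) and Col7a1 (0.13) without knockout 7, Col7a1 (0.0062) and Col17a1 (-0.27) without control 2, and Col1a2 (-0.023) without knockout 9. The cause was not tested. Over all such omissions, Col9a3 ranged from -0.17 to 0.79, Col25a1 from -0.49 to 0.013, Col2a1 from -0.089 to 1.05, Col7a1 from -0.56 to 0.13, Col17a1 from -0.27 to 0.44, Col1a2 from -0.023 to 0.23 and Col19a1 from -2.05 to -0.12. In the genotype fit over 6 arrays 0 collagen genes passed under any alternative run, while 47 features passed with normexp; leaving out any 1 Six2Cre array left 3 collagen genes at an unadjusted p under 0.05, of either sign, where 14 were. The CreER median ran from 0.19 to 0.26 over its alternatives. The call of no collagen gene for the difference between lines was the same in every alternative run. Signal over background limits Col19a1 most, which was well above background on 5 arrays.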

Other observations

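Of the 31 collagen genes, 19 had more than 1 kept probe, and in 15 of them the mean difference of all kept probes shared a sign in the Six2Cre comparison. That sign did not always hold on each slide. Among the 15, the dimmer probes of Col6a4, Col11a1, Col16a1, Col17a1, Col25a1 and Col27a1 had slide pairs of opposite sign. The 4 whose probes had opposite signs were Col5a1, Col11a2, Col14a1 and Col24a1, though the dimmer Col5a1 probe hardly differed (-0.014). Among the 15, the second, dimmer probe had a far smaller difference for Col5a3 (0.16 against 1.17), Col16a1 (0.27 against 0.79), Col6a4 (0.058 against 0.81), Col11a1 (0.074 against 0.61) and Col2a1 (0.046 against 0.48), and a larger one for Col8a1 (1.05 against 0.56). The 3 Col1a1 probes differed by 0.57, 0.87 and 0.66, the Col3a1 probes by 0.61 and 0.56, and the Col18a1 probes by -0.38 and -0.35. The Col23a1 probes gave -0.54, -0.51 and -0.74, and the Col13a1 probes -0.53 and -0.52. In the CreER pair, kept probes had opposite signs for Col5a1, Col5a3, Col11a1, Col16a1, Col17a1, Col23a1, Col24a1 and Col25a1.

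One Col1a1 probe and one Col2a1 probe were spotted 10 times on each array, with a within-array SD from 0.023 to 0.13 on the log2 scale. The 2 Six2Cre controls differed for Col2a1 with an SD of 0.58 between arrays and for Col1a1 with an SD of 0.18.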
